A study of Mus musculus with 12 samples.

Results

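The genes described here are 38 genes of B cells, of antibody production and of lymphoid organisation, measured by poly(A) RNA-Seq in 12 subcutaneous 4T1 tumours. The 38 genes were chosen by name after their levels in these same tumours had been seen, because they peak in a single tumour, and they stand among 35944 genes to which the quantified transcripts could be matched. The peak itself is therefore described and not tested. 4T1 is a mouse mammary carcinoma line, and 100000 cells were placed under the flank skin of female mice of the BALB/c strain aged 6 to 8 weeks. From day 5, mice received injections beside the tumour, 3 µg every 2 days, of extracellular vesicles (EVs) made by the mouse endothelial line MS-1 and electroporated with a miRNA mimic, and tumours were taken on day 21. The mimic was cel-miR-67, a worm miRNA not found in mice, in the group ctrl, and one of miR-222-3p, miR-183-5p and miR-142-5p in the other groups, with 3 tumours in each of the 4 groups. Every group thus carried the same cell line and received EVs of the same origin, and no group went without EVs. Each library is bulk RNA of a tumour with the host cells it held, so that fewer cells of a type and less RNA per cell cannot be told apart. The labels do not say that the 3 tumours of a group came from separate cages or cohorts, and p-values measure the spread between these tumours.

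B cells recognise antigen through a surface receptor made of an immunoglobulin and the signalling pair CD79A and CD79B, and the factors PAX5 and EBF1 set up and keep this identity. After activation they can switch the constant region of the heavy chain from IgM and IgD to IgG, IgE or IgA, mutate their variable regions in germinal centres, and become plasma cells that secrete antibody. In lymph nodes and in lymphoid aggregates within tissues, the chemokines CCL19 and CCL21 draw T cells and dendritic cells, and CXCL13 draws B cells carrying its receptor CXCR5.

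Sequencing depth was 20285968 to 27021401 estimated reads per library, and miR-142-5p tumour 3 had 24370030. The markers of a mammary carcinoma were present: the summed TPM (a level corrected for transcript length and sequencing depth) of Epcam, Krt8, Krt18, Krt19 and Cdh1 was 1265 in miR-142-5p tumour 3, the lowest of the 12, and 1343 to 1855 in the others. Reads of mt-Co2 and of its near-identical nuclear copy Gm28661 were split in 2 ways. The copy took 7.13% to 41.8% of their reads in 8 libraries and less than 1% in the other 4, which were miR-183-5p tumour 3 and the 3 tumours of miR-222-3p, so this split largely cannot be told apart from the miR-222-3p group. miR-142-5p tumour 3 was among the 8.

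Because the members peak together in 1 tumour, the DNA just before their transcription starts is shown for 4 members in which a lymphoid factor motif was found and for 1 organiser without any. Promoter windows (RefSeq, GRCm38.p6) were at hand for 23 of the 38 members. Each start is that of a RefSeq transcript, which can differ from the start of the gene used for the levels. The windows shown for Cd22 and Blnk lie inside that gene, and the window of Cd79a lies partly inside it. Searched on both strands were the octamer ATGCAAAT bound by OCT factors and their partner POU2AF1, a core of the EBF site TCCCNNGGG, a core of the NF-kB site GGGANNTTC, a PU.1-IRF composite GGAANTGAA and an ETS site ACAGGAAGT. The EBF core is nearly its own reverse complement, and the ETS and PU.1-IRF motifs share the letters GGAA. The sequences below run 5′ to 3′ over the 250 bases before the start, with matches in capitals.
Cd79a (chr7:24897247-24897496, plus strand): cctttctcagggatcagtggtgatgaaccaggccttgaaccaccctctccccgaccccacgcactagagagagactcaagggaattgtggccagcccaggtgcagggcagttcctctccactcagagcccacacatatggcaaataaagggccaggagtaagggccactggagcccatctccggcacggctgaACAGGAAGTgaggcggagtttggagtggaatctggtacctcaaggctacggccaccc
Cd22 (chr7:30879029-30879278, minus strand): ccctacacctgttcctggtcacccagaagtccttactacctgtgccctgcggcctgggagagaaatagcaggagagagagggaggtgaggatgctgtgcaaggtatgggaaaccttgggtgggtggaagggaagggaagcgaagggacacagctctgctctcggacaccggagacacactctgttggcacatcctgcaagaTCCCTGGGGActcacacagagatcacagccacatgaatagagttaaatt
Blnk (chr19:40994222-40994471, minus strand): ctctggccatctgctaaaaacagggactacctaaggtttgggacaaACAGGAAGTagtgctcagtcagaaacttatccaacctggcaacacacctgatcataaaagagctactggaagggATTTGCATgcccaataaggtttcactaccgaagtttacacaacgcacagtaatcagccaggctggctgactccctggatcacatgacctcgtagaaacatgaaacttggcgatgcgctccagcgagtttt
Bank1 (chr3:136326067-136326316, minus strand): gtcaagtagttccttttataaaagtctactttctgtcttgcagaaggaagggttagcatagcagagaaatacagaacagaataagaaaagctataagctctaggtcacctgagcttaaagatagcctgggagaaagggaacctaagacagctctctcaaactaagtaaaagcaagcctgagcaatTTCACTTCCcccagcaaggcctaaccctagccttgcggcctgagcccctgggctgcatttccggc
Cxcl13 (chr5:95956689-95956938, plus strand): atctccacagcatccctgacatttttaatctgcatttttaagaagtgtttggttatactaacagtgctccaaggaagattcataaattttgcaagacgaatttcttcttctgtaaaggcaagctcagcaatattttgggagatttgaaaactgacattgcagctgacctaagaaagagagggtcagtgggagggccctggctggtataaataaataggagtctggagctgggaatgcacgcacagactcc
The ETS site lay 57 to 49 bases before the start of Cd79a. In Cd22 the EBF core matched on both strands, 49 to 40 bases before the start. Blnk held the octamer as its reverse complement, ATTTGCAT, 130 to 123 bases before the start, and an ETS site 204 to 196 bases before it. Bank1 held the PU.1-IRF composite, also as the reverse complement, 65 to 57 bases before its start. Over the full windows of 300 bases, the octamer was found in 1 member and in 1.74% of all 32851 windows, the EBF core in 1 member and 6.56% of windows, the NF-kB core in 1 member (Fcer2a) and 3.94%, the PU.1-IRF composite in 1 member and 2.35%, and the ETS site in 2 members and 1.03%. A match describes letters only.

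Across the 12 tumours, 37 of the 38 members had their highest TPM in miR-142-5p tumour 3. The exception was Igha, the constant region of IgA, which was lowest there. Of the 37 members with at least 10 reads in some tumour, 29 were at least 4-fold above each of the 11 other tumours, where 1.68% of all genes with such reads met the same rule. That tumour was the highest of the 12 for 17.5% of these genes and the lowest for 4.85%. Since the members were chosen on this peak, nothing is read from these counts. The summed TPM of the members was 3905 in miR-142-5p tumour 3 and 121.4 to 227.3 elsewhere.

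**Figure D1:**
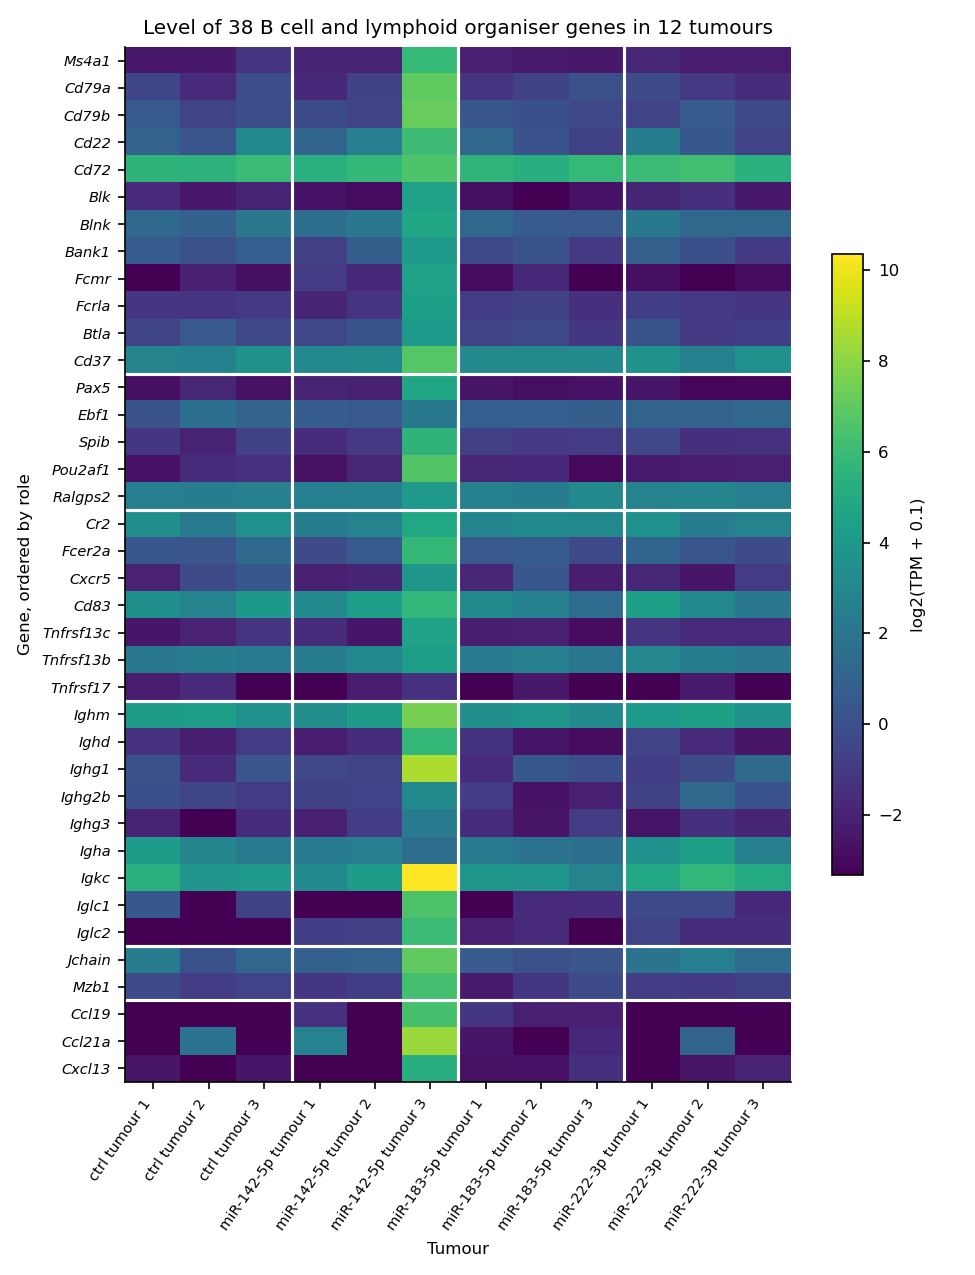
Level of each of the 38 members (rows, ordered by role, white lines between roles) in each of the 12 tumours (columns, white lines between groups), as log2(TPM + 0.1). The column of miR-142-5p tumour 3 is the brightest for 37 genes, and Igha is the exception.

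Among the receptor genes, Ms4a1, which encodes CD20 (chr19:11249675-11266241), stood at 0.0829, 0.0924 and 0.33 TPM in the 3 ctrl tumours, at 0.147, 0.158 and 57.7 TPM in the miR-142-5p tumours, at 0.133, 0.098 and 0.0931 TPM in the miR-183-5p tumours and at 0.179, 0.109 and 0.11 TPM in the miR-222-3p tumours. Apart from miR-142-5p tumour 3, which held 2736.8 reads, no tumour held more than 13.2 reads, and the groups overlapped. Cd79a (chr7:24897381-24902197), the signalling chain of the receptor, was at 0.614, 0.21 and 0.892 TPM in ctrl, 0.198, 0.529 and 130.9 TPM in miR-142-5p, 0.332, 0.532 and 0.96 TPM in miR-183-5p and 0.809, 0.386 and 0.239 TPM in miR-222-3p. With miR-142-5p tumour 3 set aside, the 4 groups overlapped. Its partner Cd79b was at 144.1 TPM in that tumour and at 0.596 to 1.4 TPM in the others.

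The kinase Blk reached 22.8 TPM against 0 to 0.258 TPM, the IgM receptor Fcmr 22.9 TPM against 0 to 0.419 TPM, and Fcrla, an intracellular Fc receptor-like protein, 20.8 TPM against 0.168 to 0.54 TPM. Cd72, an inhibitory receptor, was at 39.9 to 74.6 TPM in the 11 tumours and at 95.2 TPM in miR-142-5p tumour 3, 1.28 times the next highest. The adaptor Blnk (27.2 TPM against 1.32 to 4.44 TPM), the adaptor Bank1 (16.1 TPM against 0.396 to 1.68 TPM), the tetraspanin Cd37 (106.5 TPM against 6.21 to 12.7 TPM), the sialic acid receptor Cd22 (65.7 TPM against 0.551 to 8.24 TPM) and the inhibitory receptor Btla (16.1 TPM against 0.353 to 1.31 TPM) were also highest in miR-142-5p tumour 3.

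Of the regulators, Pax5 was at 26.0 TPM against 0.0155 to 0.177 TPM, Spib, an ETS factor of B cells and plasmacytoid dendritic cells, at 47.5 TPM against 0.152 to 0.645 TPM, and Pou2af1, the octamer co-activator, at 102.3 TPM against 0.0255 to 0.293 TPM. In TPM these 3 were 147.2, 73.7 and 348.7 times the next highest tumour, and in CPM, which leaves transcript length out, 75.4, 61.4 and 379.8 times. Ebf1, which stromal and fat cells also express, was at 4.58 TPM against 1.02 to 3.14 TPM, and Ralgps2, a Ral exchange factor, at 16.6 TPM against 5.38 to 8.83 TPM.

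Receptors of mature B cells were less even. Fcer2a (CD23, the low-affinity IgE receptor) was at 56.1 TPM against 0.714 to 2.45 TPM, Tnfrsf13c (the receptor for the survival factor BAFF) at 23.3 TPM against 0.0376 to 0.314 TPM, and Cxcr5 at 14.8 TPM against 0.0752 to 1.28 TPM. Tnfrsf13b (TACI) was at 20.5 TPM against 4.06 to 8.14 TPM and Cd83, an activation marker that dendritic cells share, at 54.1 TPM against 2.64 to 21.1 TPM. Tnfrsf17, the plasma cell receptor BCMA, held 3 reads in miR-142-5p tumour 3 and at most 2 elsewhere, which is too few to rank the tumours.

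Cr2, complement receptor 2 of B cells and follicular dendritic cells (chr1:195136811-195176716), needs its transcripts told apart. Its TPM was 11, 4.82 and 11.8 in ctrl, 5.4, 6.8 and 28.5 in miR-142-5p, 7.0, 9.23 and 8.41 in miR-183-5p and 11.7, 5.25 and 6.93 in miR-222-3p, only 2.42 times the next highest tumour at its peak. In reads the peak was 1452 against 8 to 22. In the 11 tumours most of the TPM came from 3.9 to 10.7 reads given to Cr2-206, a transcript of 206 bases, and in miR-142-5p tumour 3 that transcript had 0 reads while the longer transcript of 6207 bases and 19 exons had 857.8.

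**Figure D2:**
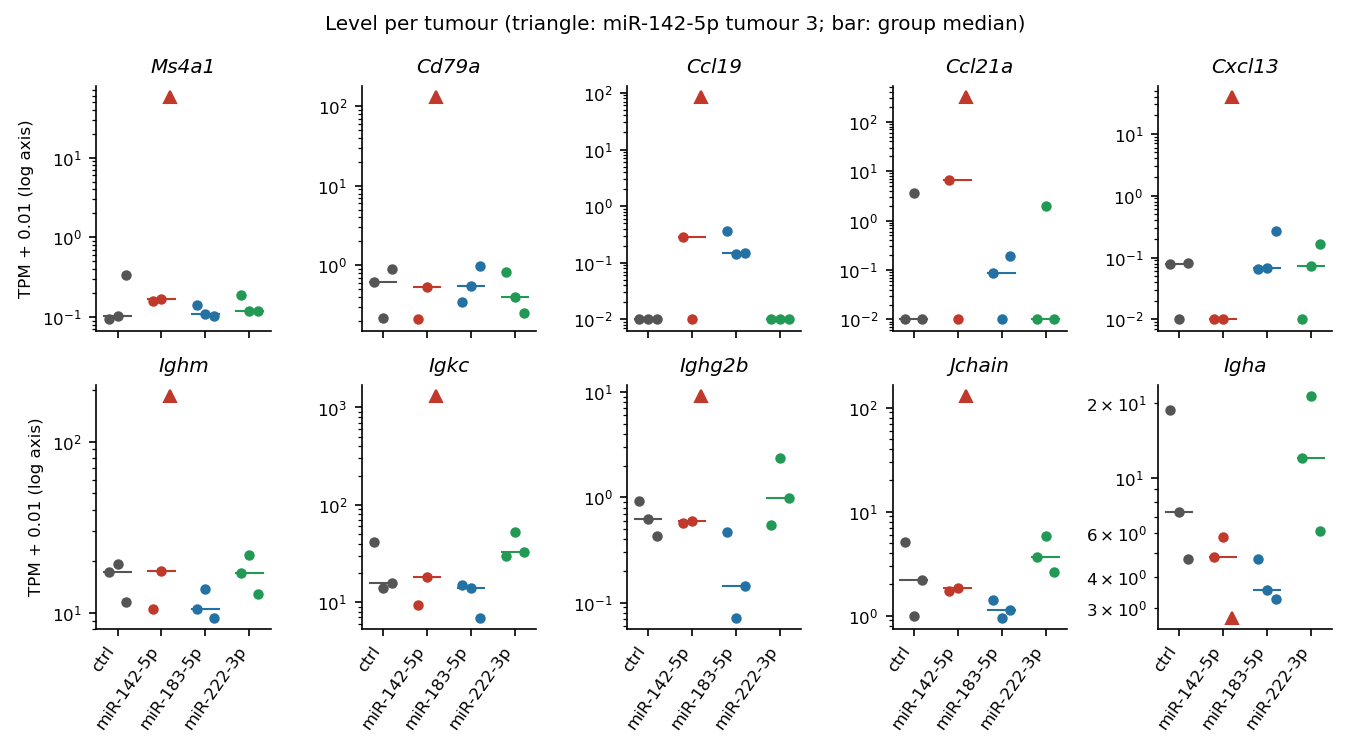
TPM + 0.01 on a log axis for 10 members in the 4 groups; each point is a tumour, the triangle is miR-142-5p tumour 3 and the bar is the group median. The triangle is above every circle in 9 panels and below every circle for Igha (2.72 TPM against 3.24 to 21.4 TPM).

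In miR-142-5p tumour 3 Igkc had the highest TPM of the members. Igkc, the kappa light chain (chr6:70726435-70726966), was at 41.8, 13.9 and 15.9 TPM in ctrl, 9.4, 18.1 and 1313 TPM in miR-142-5p, 15.0, 14.1 and 6.84 TPM in miR-183-5p and 29.7, 53.1 and 32.7 TPM in miR-222-3p. Ighm, the heavy chain of IgM (chr12:113418558-113422730), was at 17.2, 19.2 and 11.5 TPM in ctrl, 10.6, 17.5 and 184.8 TPM in miR-142-5p, 10.6, 13.7 and 9.26 TPM in miR-183-5p and 17.0, 21.9 and 12.9 TPM in miR-222-3p. Both were thus expressed in every tumour, and miR-142-5p tumour 3 was 24.7 and 8.46 times the next highest. Ighd, the IgD chain that naive B cells carry with IgM, reached 55.8 TPM against 0.0375 to 0.595 TPM.

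Ighg2b (chr12:113302965-113307933) was at 0.916, 0.613 and 0.419 TPM in ctrl, 0.56, 0.582 and 9.17 TPM in miR-142-5p, 0.462, 0.0611 and 0.133 TPM in miR-183-5p and 0.534, 2.35 and 0.985 TPM in miR-222-3p. The peak was here 3.9 times the next highest tumour, miR-222-3p tumour 2. Ighg1 reached 410.7 TPM against 0.226 to 2.58 TPM, Ighg3 4.68 TPM against 0 to 0.452 TPM, Iglc1 91.6 TPM against 0 to 1.24 TPM and Iglc2 63.3 TPM against 0 to 0.594 TPM. The IgG genes resemble one another, as do the lambda genes, and BALB/c alleles were read against a C57BL/6 reference, so the division among them is uncertain.

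The make-up of the heavy chains differed as well as their amount. Of 17962 reads on heavy chain constant regions in miR-142-5p tumour 3, 53.1% (95% Wilson interval 52.3 to 53.8) were Ighg1, 25.2% (24.6 to 25.9) Ighm, 8.09% (7.7 to 8.5) Ighd and 0.245% (0.183 to 0.329) Igha. In the 11 other tumours, with 297 to 929 such reads each, Ighm was 54.1% to 79.6%, Igha 13.6% to 37.2%, and Ighg1 0.552% to 7.98%. Ighe, the IgE chain, is no member and was named after its values had been seen: it held 1863 reads, 10.4% (9.93 to 10.8), in miR-142-5p tumour 3 and 0 to 8 reads in the others. Lambda constant regions made 15.6% (14.9 to 16.4) of 8754 light chain reads there and 0% to 5.66% elsewhere, on 38 to 298 reads. These intervals, and those below, cover counting error only.

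**Figure D3:**
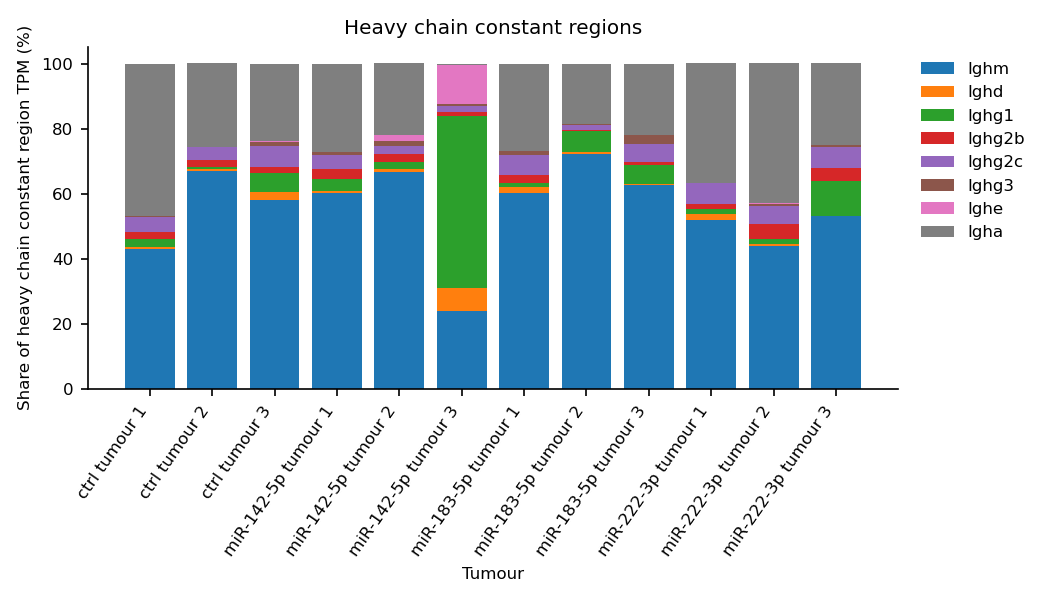
Share of each heavy chain constant region in the summed TPM of the 8 regions (stacked bars, %), per tumour. miR-142-5p tumour 3 is the bar led by Ighg1 (52.8%), with Igha at 0.35% against 18.7% to 46.8% in the others.

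Heavy chains are made in a membrane form, whose transcript has 2 further exons, and a secreted form. For Ighm, the 6-exon transcript took 81.4% (80.2 to 82.5) of the gene's reads in miR-142-5p tumour 3 and 43.9% to 70.5% in the other tumours. For Ighg1, the 6-exon transcript took 59.1% (58.1 to 60.0) of 9532 reads there, and by TPM 35.6%, whereas it held at most 1.6 reads in any other tumour, where the gene had 3 to 45 reads. The division between transcripts is an estimate made by the quantification.

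Variable segments were many. Reads on annotated immunoglobulin V genes came to 4273.7 in miR-142-5p tumour 3, over 155 of 218 segments with at least 1 read, and to 22 to 149 reads over 16 to 51 segments in the other tumours. The leading kappa segment of that tumour, Igkv1-110 (chr6:68270485-68271267), held 9.34% (8.42 to 10.4) of 3435.2 kappa reads, and the leading heavy segment, Ighv9-3, held 11% (8.61 to 14.0) of 517.5. The next segments over the 12 tumours were Iglv1 (217 reads in that tumour, at most 9 in another), Igkv1-117 (188.3 and 6), Igkv14-111 (185 and 13) and Igkv6-32 (177 and 3). In the other 11 tumours the leading kappa segment was Igkv14-126 in miR-183-5p tumour 2 and miR-222-3p tumour 3, Igkv14-111 in miR-142-5p tumour 2 and miR-222-3p tumour 2, and a different one in each of the 7 others. Its share was highest in miR-222-3p tumour 3, with 20 of 73 kappa reads, 27.4% (18.5 to 38.6). BALB/c alleles were read against a C57BL/6 reference here too, so the names, counts and shares of segments are uncertain. Sequences were not compared between cells.

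For antibody secretion, Jchain, which joins IgM and IgA into polymers (chr5:88519809-88527891), was at 5.13, 0.993 and 2.17 TPM in ctrl, 1.7, 1.84 and 129.3 TPM in miR-142-5p, 1.41, 0.935 and 1.11 TPM in miR-183-5p and 3.67, 5.82 and 2.62 TPM in miR-222-3p. Mzb1, a chaperone of antibody-secreting cells, reached 80.5 TPM against 0.0982 to 0.78 TPM. Of 15 further genes of the plasma cell programme, miR-142-5p tumour 3 was highest for 7, and the median ratio to the median of the other tumours was 1.15. Among the 7, Eaf2 was at 29.2 TPM against 1.41 to 2.985 TPM and Slamf7 at 8.89 TPM against 0.416 to 2.7 TPM. Derl3 was at 5.32 TPM against 0.514 to 1.78 TPM and Irf4 at 3.51 TPM against 0.249 to 0.957 TPM. Ell2, Herpud1 and Edem1 exceeded the other tumours by less. Carcinoma and stromal cells express many of these 15, and the most abundant, Txndc5 (a protein folding enzyme) and Sdc1 (CD138, also on epithelia), at 168.5 and 144.5 TPM in that tumour, were at 137.4 to 191.6 and 102.6 to 209.7 TPM in the others.

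The organiser chemokines were close to 0 in most tumours. Ccl19 (chr4:42754525-42756577) was at 84.2 TPM in miR-142-5p tumour 3 and at 0.281 and 0 TPM in miR-142-5p tumours 1 and 2. It was listed at 0 in the 3 ctrl and the 3 miR-222-3p tumours, and at 0.354, 0.131 and 0.138 TPM in miR-183-5p. Cxcl13 (chr5:95956951-95961068) was at 39.1 TPM in miR-142-5p tumour 3 and at 0 in the 2 others of its group, at 0.0678, 0 and 0.071 TPM in ctrl, 0.055, 0.0587 and 0.255 TPM in miR-183-5p and 0, 0.0639 and 0.158 TPM in miR-222-3p. No tumour but miR-142-5p tumour 3 had more than 3 reads of Ccl19 or 4 of Cxcl13. Ccl21a (chr4:42772860-42773993) was at 0, 3.64 and 0 TPM in ctrl, 6.53, 0 and 315.4 TPM in miR-142-5p, 0.0782, 0 and 0.182 TPM in miR-183-5p and 0, 1.96 and 0 TPM in miR-222-3p. It therefore appeared at 21.5 to 70 reads in 1 tumour each of ctrl, miR-142-5p and miR-222-3p, apart from the 3558.7 reads of the peak. Ccl19 and Ccl21a have near-identical copies in the annotation, so the division among copies is uncertain.

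Lists of genes of other cells and structures moved with the members in miR-142-5p tumour 3. Of 8 germinal centre genes, the peak was in that tumour for 8 and at least 4-fold above every other tumour for 5, among them Gcsam (18.3 TPM against 0.0199 to 0.483 TPM), Mef2b (17.4 TPM against 0.273 to 0.809 TPM), Rgs13 and Nuggc. Bcl6, the master regulator of the germinal centre, which other cells express too, was at 30.1 TPM against 14.7 to 20.4 TPM, and the migration receptor S1pr2 at 18.9 TPM against 8.54 to 13.4 TPM. Of 16 other B cell genes 14 peaked there, while Fcgr2b and Lyn, both abundant in myeloid cells, did not. Of the most abundant, Fcgr2b was at 217.7 TPM, within the 140.9 to 343.9 TPM of the others, and the phospholipase Plcg2 at 103.3 TPM against 65.9 to 97.9 TPM.

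Genes of high endothelial venules, the vessels by which lymphocytes enter lymph nodes, also peaked there. Glycam1, a ligand of L-selectin, had 2008 reads (275.3 TPM) in miR-142-5p tumour 3 and 0 in the 11 others. Against the limit that a count of 0 allows (3 reads in the shallowest library) it was at least 557.2-fold higher. Madcam1 was at 3.86 TPM against 0 to 0.246 TPM and Chst4 at 1.53 TPM against 0 to 0.069 TPM. Fut7, which leukocytes also express, was at 2.32 TPM against 0.256 to 1.2 TPM. Of the ligands, Ltb and Lta (lymphotoxin chains) were at 71.7 and 7.87 TPM against 8.27 to 15.4 and 0.381 to 1.12 TPM, and Ccr7, the receptor for CCL19 and CCL21, at 16.1 TPM against 0.439 to 1.91 TPM. Tnfsf13b (BAFF) was at 5.92 TPM, within the 4.58 to 17.4 TPM of the others. The lymphotoxin receptor Ltbr was lowest in miR-142-5p tumour 3, at 50.5 TPM against 57.9 to 72.0 TPM, and Nfkb2, at 51.8 TPM, was within the 37.0 to 54.4 TPM of the others.

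T cell markers peaked in that tumour for 15 of 16 genes, with a median ratio of 4.35, and their summed TPM was 350.7 against 79.5 to 103.6 in ctrl, 70.9 to 105.2 in miR-183-5p, 74.3 to 127.3 in miR-222-3p and 82.4 at the lowest of miR-142-5p. Cd3g, a chain of the T cell receptor complex, stood at 48.4 TPM against 7.98 to 26.8 TPM, the kinase Lck at 58.3 TPM against 9.2 to 16.5 TPM, Cd4 at 15.2 TPM against 0.774 to 3.58 TPM and Cd8a at 23.0 TPM against 5.77 to 15.8 TPM. All 4 plasmacytoid dendritic cell genes and 4 of 6 conventional dendritic cell genes peaked there, with Pacsin1 and Klk1 at 5.31 and 2.44 TPM against 0.0628 to 1.16 and 0.122 to 1.22 TPM, and Fscn1 and Itgax within the range of the others at 206.5 and 35.7 TPM. None of the 7 macrophage, 5 neutrophil, 5 erythroid, 5 adipocyte, 4 muscle or 5 carcinoma genes did. The most abundant of these lists, C1qa and C1qb, S100a9 and S100a8, Hbb-bs and Hba-a2, Cfd and Adipoq, and Tnnt3, were within the range of the others, Acta1 had 0 reads, and the keratin genes Krt18 and Krt8 were at 632.1 and 513.2 TPM against 714.9 to 1046 and 480.9 to 732.3 TPM. The macrophage genes summed to 1722 to 2179 TPM in ctrl, 1849 to 2708 TPM in miR-142-5p, 1129 to 1709 TPM in miR-183-5p and 1522 to 2271 TPM in miR-222-3p. The lymphatic vessel genes Lyve1, Prox1 and Flt4 summed to 4.19 TPM against 2.68 to 4.12 TPM, and of 4 skin genes Krt1 had 0 reads in the 12 tumours and Krt10 and Krt5 were within the range of the others. What part these cells have in the levels of the members was not tested.

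**Figure D4:**
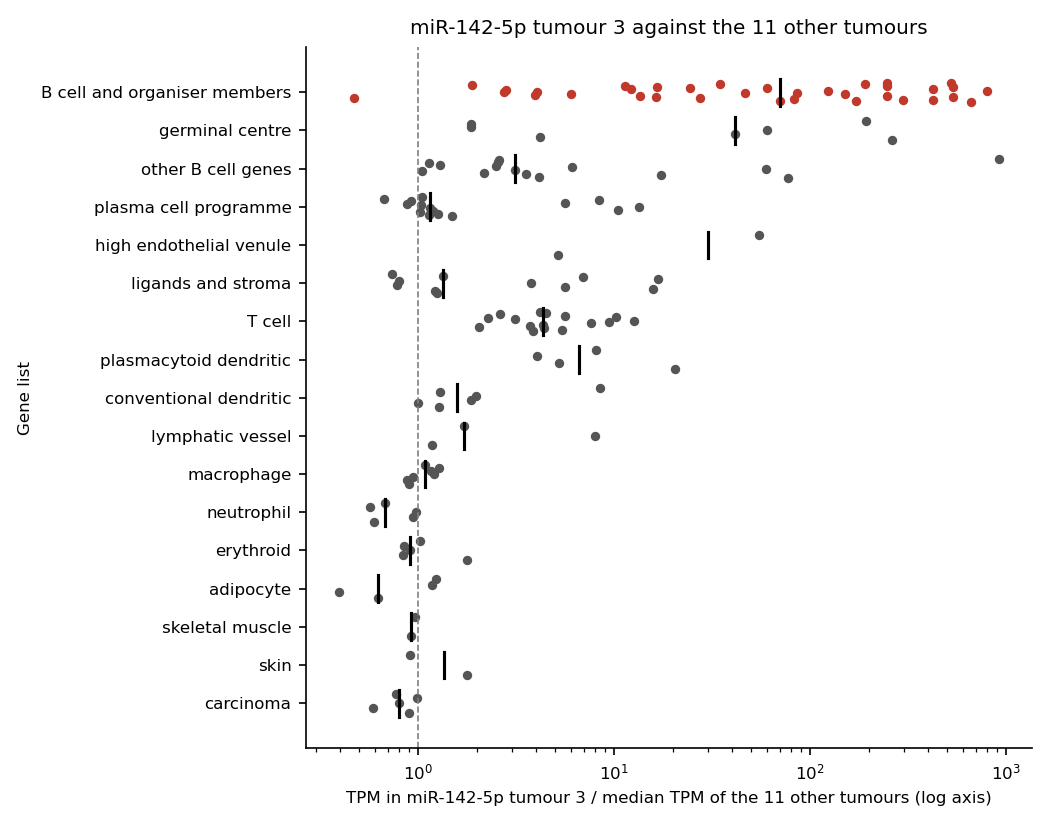
Ratio of the TPM in miR-142-5p tumour 3 to the median TPM of the 11 other tumours (log axis) for each gene of 17 lists; genes whose median is 0 in the other tumours, such as Glycam1, cannot be drawn, genes at 0 in miR-142-5p tumour 3 have no point, and the black bar is the list median over both. The members lie around 70.3, T cell genes around 4.35 and carcinoma genes around 0.798.

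The single tumour sets what a comparison of miR-142-5p with ctrl gives. The question put by the design is whether loading the EVs with each miRNA changes the tumour's transcripts. With all 12 tumours, the log2 fold changes of the 24 members with enough reads to be fitted (at least 10 in 3 libraries) had a median of 2.5, against -0.005 over all genes, and 23 of the 24 were above 0. The largest were Ighg1 at 7.36 ± 1.72 (SE), Pax5 at 6.49 ± 1.51, Ccl21a at 6.41 ± 3.76 and Cd79a at 6.16 ± 1.6. In this fit DESeq2 gave no p-value to 10 of the 24 because 1 tumour lay too far from the others (Cook's distance). Without miR-142-5p tumour 3, 23 members could be fitted, their median was -0.13, and 9 were above 0. Cd79a was then at -0.62 ± 0.89, Igkc at -0.79 ± 0.53 (from 4.09 ± 1.33), Ighm at -0.15 ± 0.31 (from 2.07 ± 0.84), Jchain at -0.62 ± 0.61 (from 3.86 ± 1.3), Ighg2b at -0.13 ± 0.91 (from 2.32 ± 0.98) and Cr2 at -0.51 ± 0.68 (from 0.62 ± 0.65). Ccl21a went from 6.41 ± 3.76 to 1.56 ± 4.38. Ms4a1, Ccl19 and Cxcl13 had too few reads outside that tumour to be fitted.

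**Figure D5:**
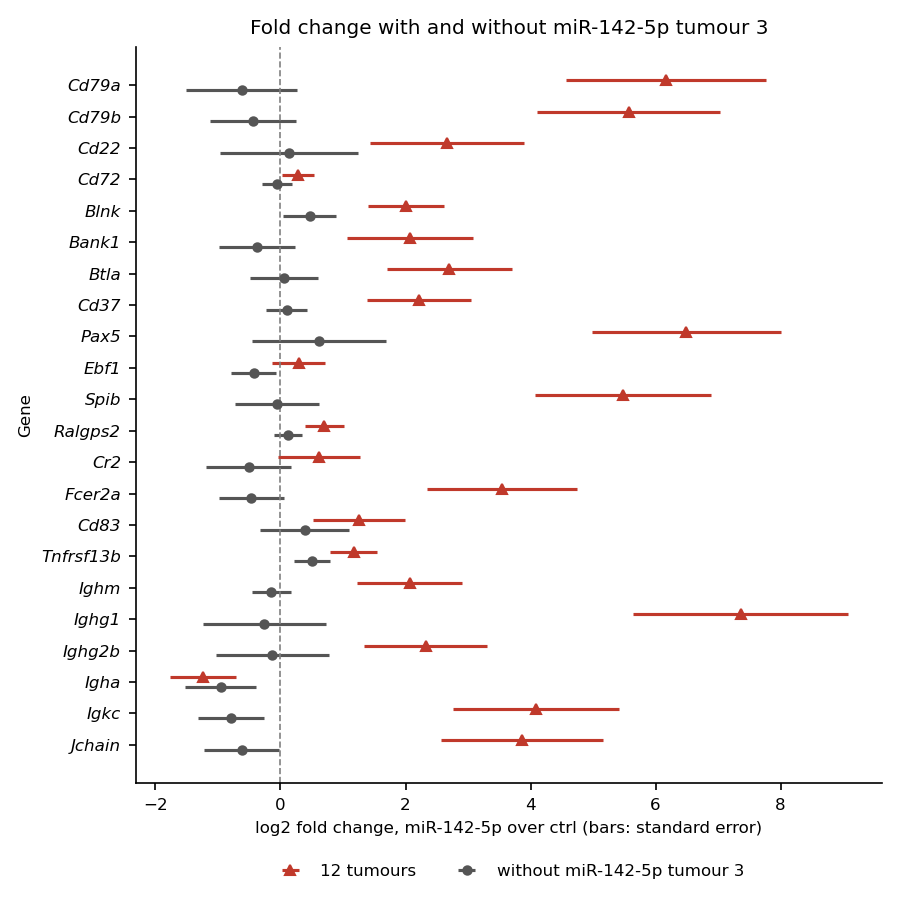
log2 fold change of miR-142-5p over ctrl (bars, standard error) for 22 members, in the fit of 12 tumours (triangles) and in the fit without miR-142-5p tumour 3 (circles); Ccl21a, with a standard error of 3.76, is left out. Triangles lie above 0 except for Igha (-1.24), and the circles lie between -0.95 (Igha) and 0.62 (Pax5).

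In tests over all genes (DESeq2, Benjamini-Hochberg adjusted p under 0.05), the fit of 12 tumours called 0 members in miR-142-5p against ctrl, where it called 0.00649% of all genes. It called 0 in miR-183-5p against ctrl (0.0% of all genes), in miR-222-3p against ctrl (0.026%), in miR-183-5p against miR-222-3p (0.0324%) and in miR-142-5p against miR-222-3p (0.0389%). Between miR-183-5p and miR-142-5p it called 1 member, Blnk, with a log2 fold change of -2.68 ± 0.61 and an adjusted p of 0.027, where 0.0519% of all genes were called. At an unadjusted p under 0.05 this fit had 8 of the 14 members with a p-value in miR-142-5p against ctrl (3.56% of all genes), 1 in miR-183-5p against ctrl (3.22%), 0 in miR-222-3p against ctrl (2.29%), 9 between miR-183-5p and miR-142-5p (7.95%), 2 in miR-183-5p against miR-222-3p (3.24%) and 7 in miR-142-5p against miR-222-3p (3.59%). edgeR, which gives a p-value to each of the 24, called 0 of 15459 genes in each contrast, so its 0 called members say nothing about the members. At an unadjusted p under 0.05 edgeR had 19 members in miR-142-5p against ctrl (3.35% of all genes), 1 in miR-183-5p against ctrl (2.87%), 0 in miR-222-3p against ctrl (2.04%), 19 between miR-183-5p and miR-142-5p (7.3%), 2 in miR-183-5p against miR-222-3p (2.88%) and 18 in miR-142-5p against miR-222-3p (3.38%). The 3 contrasts with miR-142-5p hold the tumour on which the members were chosen, and their counts are a description. Without that tumour Blnk was at -1.14 ± 0.43 with an adjusted p of 0.636.

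Without miR-142-5p tumour 3, DESeq2 called 0 members in each of the 6 contrasts. edgeR called 0 of 15358 genes, members included. The share of all genes called by DESeq2 was 0.0195% in miR-142-5p against ctrl, 0.0% in miR-183-5p against ctrl, 0.0261% in miR-222-3p against ctrl, 0.0456% between miR-183-5p and each of the 2 other miRNA groups, and 0.013% in miR-142-5p against miR-222-3p. At an unadjusted p under 0.05, members were 0 of 23 in miR-142-5p against ctrl (3.06% of all genes) and 0 in miR-222-3p against ctrl (2.37%). They were 3 in miR-183-5p against ctrl (3.32%), 1 between miR-183-5p and miR-142-5p (5.3%), 6 in miR-183-5p against miR-222-3p (3.33%) and 2 in miR-142-5p against miR-222-3p (2.52%), each of them lower in the first group. At that level edgeR had 0 members in miR-142-5p against ctrl (2.89% of all genes), 2 in miR-183-5p against ctrl (3.05%), 0 in miR-222-3p against ctrl (2.23%), 2 between miR-183-5p and miR-142-5p (4.84%), 5 in miR-183-5p against miR-222-3p (3.06%) and 1 in miR-142-5p against miR-222-3p (2.53%).

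These members were mostly antibody genes. Igha (chr12:113254830-113260236) was at 18.8, 7.32 and 4.73 TPM in ctrl, 4.79, 5.76 and 2.72 TPM in miR-142-5p, 4.71, 3.54 and 3.24 TPM in miR-183-5p and 12.0, 21.4 and 6.14 TPM in miR-222-3p. Each miR-183-5p tumour was thus below each ctrl and each miR-222-3p tumour, the nearest ctrl value being 4.73 TPM. In the fit of 11 tumours its log2 fold change was -1.45 ± 0.51 against ctrl (adjusted p = 1.0 by DESeq2) and -1.75 ± 0.51 against miR-222-3p (adjusted p = 0.415 by DESeq2). Igkc, at 12.0 ± 4.49 TPM in miR-183-5p and 38.5 ± 12.7 TPM in miR-222-3p (SD, n = 3), gave -1.66 ± 0.47 between them, with an adjusted p of 0.393 by DESeq2. Jchain, at 1.15 ± 0.24 and 4.04 ± 1.63 TPM (SD, n = 3), gave -1.78 ± 0.54 with an adjusted p of 0.484 by DESeq2, and Ighg2b -2.6 ± 0.84 with an adjusted p of 0.671 by DESeq2. None passed the threshold in this fit. With only the miR-183-5p and miR-222-3p groups fitted, 3 members passed it by DESeq2, with 0.114% of all genes called: Igkc at -1.66 ± 0.35 (adjusted p = 0.00612 by DESeq2), Igha at -1.75 ± 0.405 (adjusted p = 0.0237 by DESeq2) and Jchain at -1.78 ± 0.42 (adjusted p = 0.0266 by DESeq2). Every miR-222-3p tumour had a low Gm28661 share, and of the miR-183-5p tumours only tumour 3 did. In this contrast the group therefore largely cannot be told apart from that split of the libraries. The 7 macrophage genes summed to 1129 to 1709 TPM in miR-183-5p, 1722 to 2179 TPM in ctrl and 1522 to 2271 TPM in miR-222-3p. The 5 neutrophil genes summed to 1793 to 2909, 1004 to 1933 and 851 to 1916 TPM in the same order. In the fit of 11 tumours, where no member passed, 2 erythroid genes passed the threshold in that contrast. Both, Hba-a2 and Hbb-bt, were higher in the miR-183-5p group. With 12 tumours fitted, 0 erythroid genes passed. Summed over the 5 erythroid genes, the level was 435 to 760.6 TPM in miR-183-5p and 150.5 to 272.3 TPM in miR-222-3p. Muscle genes summed to 273.6 TPM in miR-183-5p tumour 3 against 7.5 to 14.4 TPM elsewhere. The part of these cell types was not tested.

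The levels of these antibody genes were compared among the 11 tumours (log2 of normalised counts + 1, permutation tests of 6 pairs of Igha, Igkc, Jchain and Ighm, two-sided). The pairs were chosen after their values had been seen and the permutations cross the groups, whose levels differ, so the p-values are no independent evidence. Igha and Igkc gave Pearson's r = 0.872 (permutation p = 0.00035, adjusted 0.0011) and Spearman's rho = 0.755 (permutation p = 0.00987, adjusted 0.0197). Without miR-222-3p tumour 2 and ctrl tumour 1, the 2 tumours farthest from the median of Igha, r was 0.696, and within the 7 of these tumours with a high Gm28661 share it was 0.859, while the other 4 are too few. Igha and Jchain gave r = 0.878 (permutation p = 0.00051, adjusted 0.0011) and rho = 0.736 (permutation p = 0.0133, adjusted 0.0199), with r = 0.649 and 0.795 in the same subsets. Igkc and Jchain gave r = 0.872 (permutation p = 0.00055, adjusted 0.0011) and rho = 0.873 (permutation p = 0.00078, adjusted 0.00468), with 0.706 and 0.803. Igha and Ighm gave r = 0.793 (permutation p = 0.00297, adjusted 0.00445) and rho = 0.827 (permutation p = 0.00281, adjusted 0.00843), with 0.661 and 0.634.

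For Igkc and Ighm the values were r = 0.725 (permutation p = 0.0133, adjusted 0.016) and rho = 0.573 (permutation p = 0.0712, adjusted 0.0854), with r = 0.509 and 0.55 in the subsets left after the 2 farthest tumours were dropped and within the 7. Jchain and Ighm gave r = 0.521 (permutation p = 0.103, adjusted 0.103) and rho = 0.4 (permutation p = 0.223, adjusted 0.223), with 0.086 and 0.2, and here the relation did not pass the test. As deviations from the group means, with tumours permuted within groups (exact, two-sided), r was 0.765 for Igha and Igkc (adjusted exact p = 0.174), 0.775 for Igha and Jchain (0.178) and 0.747 for Igkc and Jchain (0.174), and none of the 6 pairs passed the test after adjustment. The highest levels of Igha were in miR-222-3p tumour 2, ctrl tumour 1 and miR-222-3p tumour 1. Adding miR-142-5p tumour 3 moved r of Igha and Igkc to -0.026 and that of Igkc and Jchain to 0.974.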

How the data were processed

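Per the labels and the study's methods, poly(A) RNA was made into stranded TruSeq libraries, sequenced in pairs and quantified by the authors with Salmon against a mouse Ensembl transcriptome (GRCm38). The study's methods name 1 Ensembl release for these tumours and the names of the deposited tables carry a later one, so the release is uncertain. The deposited tables give TPM and estimated counts per transcript. Transcripts were matched by identifier to GENCODE M21 (98.3% matched) and summed per gene. The unmatched transcripts held 0.633% to 0.671% of reads. For Ccl19 and Ccl21a the chromosome 4 gene was taken. A comparison of library counts within groups gave a chi-square per degree of freedom of 13.6 to 59.1, so no 2 libraries of a group were copies.

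Levels are given as TPM. Estimated counts were rounded and tested with DESeq2 1.42.0 (Wald test, transcript length offset, 4 groups in 1 model, Benjamini-Hochberg over all genes, threshold 0.05) after keeping the 15459 genes that reached 10 reads in 3 or more libraries. The same model was fitted without miR-142-5p tumour 3, and edgeR 4.0.16 (quasi-likelihood, TMM) was an alternative. R 4.3.3, Python 3.11.15 and scipy 1.17.1 were used, with 100000 permutations for correlations. The tests were run on simulated counts first. Members and lists were chosen with earlier results of these data known. Values per tumour were given by rule for Ms4a1, Cd79a, Ighm, Igkc, Ighg2b, Jchain, Cxcl13, Ccl21a, Ccl19 and Cr2. Their fold changes of miR-142-5p over ctrl were given where they could be fitted. Also named by rule were any member past the threshold, the 10 genes most like the members and the leading V segments. Of other lists, genes past the threshold and the 2 with the highest mean TPM were named. Other genes were named after their values were seen. The 4-fold rule was also chosen then. The labels do not say whether tumours with the same replicate number were paired. Correlations of deviations from the group means ran from -0.444 to 0.22 for 18 same-numbered pairs. Deviations within a group of 3 depend on one another, so these values cannot decide whether tumours were paired.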

Additional observations from a re-analysis of the deposited data

How the results depend on the processing

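The count of called members was compared under each alternative. Between miR-183-5p and miR-142-5p it was 1 (0.0519% of all genes called). It fell to 0 with edgeR (0.0%), without the count filter (0.0395%) and without the length offset (0.0265%). It was also 0 with the replicate number as a block (0.0388%) and with only the 2 groups compared (0.5%). With at least 50 reads in every library it was 0 too (0.0598%). Blnk, with 43.4 reads in miR-183-5p tumour 3, could not pass that filter, so its loss there was fixed in advance. The count in this contrast was 3 without the Cook filter (0.0808%) and 2 at a threshold of 0.1 (0.247%). In miR-142-5p against miR-222-3p it went from 0 to 1 without the Cook filter (0.0453%), and in miR-183-5p against miR-222-3p from 0 to 3 with only the 2 groups compared (0.114%). edgeR called 0.0% of all genes in each contrast. The causes were not tested.

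Leaving out 1 tumour at a time gave 0 to 11 members in miR-142-5p against ctrl, 0 to 17 between miR-183-5p and miR-142-5p and 0 to 9 in miR-142-5p against miR-222-3p. The highest counts were without miR-142-5p replicate 1 (11, 17 and 9, with 0.531%, 2.77% and 0.483% of all genes called) and without miR-142-5p replicate 2 (6, 11 and 6, with 0.149%, 0.371% and 0.143%), each of which leaves the peak tumour with 1 other, and without ctrl replicate 2 it was 1 in the first contrast (0.0065%). Between miR-183-5p and miR-142-5p the count fell to 0 when any single ctrl or miR-222-3p tumour was left out (0.0326% to 0.201% of all genes called). It was also 0 without miR-183-5p replicate 2 (0.104%) or 3 (0.0%), and without the peak tumour (0.0456%). Without miR-183-5p replicate 1 the only called member was Ighg2b (0.156%), and Blnk was not called. Among these fits, Blnk was called only without miR-142-5p replicate 1 or 2. The median log2 fold change of the members then ran from -0.131 to 3.02 in miR-142-5p against ctrl, from -3.83 to -0.353 between miR-183-5p and miR-142-5p and from -0.239 to 3.39 in miR-142-5p against miR-222-3p, the value nearest 0 always being that without the peak tumour. It was -1.15 between miR-183-5p and miR-142-5p with at least 50 reads in every library. That filter removes most members, among them Cd79a, Pax5, Igkc and Jchain. The value is thus the median of those left, such as Cd72, Ebf1 and Tnfrsf13b, and not of the 24. In the 3 contrasts without the miR-142-5p group the median moved by less than 1 SD under each alternative run. The replicate block gave 0 called members in each contrast. It called 0.00647% to 0.0582% of all genes with 12 tumours and 0.013% to 0.0651% with 11. Deviations of same-numbered tumours correlated by -0.045 on average, and of different numbers by 0.022, which cannot decide whether tumours were paired. For Cr2, the fold change against ctrl rose from 0.62 to 4.67 without the length offset, as its TPM outside the peak rests on a short transcript.

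Members with few reads in the 11 other tumours, such as Ms4a1, Cxcl13 and Ccl19, cannot show a difference between groups at this depth.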

Other observations

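Other genes followed the members. Over the 12 tumours, the 10 genes outside the list that were most like the mean of the 24 standardised members (Pearson over log2 normalised counts) were Tbc1d10c (0.982), Coro1a (0.981), Atp2a3 (0.98), Btk (0.973), Ikzf1 (0.968), Ltb (0.964), Pla2g2d (0.964), Carmil2 (0.963), Lax1 (0.963) and Il21r (0.962), given as a description. Coro1a, an actin regulator of leukocytes, was at 429.8 TPM in miR-142-5p tumour 3 and 143.1 to 197.6 TPM in the others. Pla2g2d, a secreted phospholipase of lymphoid dendritic cells, was at 24.6 TPM against 0.404 to 1.31 TPM. Ikzf1, the lymphoid factor Ikaros, was at 37.6 TPM against 5.08 to 9.75 TPM.

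Over the 11 other tumours the leading genes were different ones: Fmo5 (0.941), Tnfrsf21 (0.94), Camk1d (0.939), Psd3 (0.939), Gimap4 (0.938), Ak3 (0.937), Ovgp1 (0.933), Nsmaf (0.932), Vps13c (0.931) and Aoah (0.931). Only part of the members moved together in these tumours. Their own correlations with the mean ran from -0.348 (Ccl21a) to 0.866 (Cd83). Bank1 was at 0.844, Blnk at 0.77, Cd22 at 0.767 and Fcer2a at 0.757, whereas Cd79b was at 0.111, Pax5 at -0.126 and Ebf1 at -0.288. A gene like the mean therefore need not follow each of the B cell members. Gimap4, a GTPase of lymphocytes, was at 17.5 to 36.7 TPM in these 11 and at 62.7 TPM in miR-142-5p tumour 3, and Aoah, a lipase of myeloid cells, at 2.56 to 8.76 and 7.18 TPM. The points of these correlations share library depth and normalisation.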
